A study of Homo sapiens with 6 samples.

Results

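The proteasome is the protease complex that degrades most ubiquitin-tagged proteins of the cell, and its subunit genes were described here in human keratinocytes with and without palmatine. The members were all genes of the expression table whose symbol has the form PSM, a letter from A to G and a number. PSMB8 and PSMB9, which are interferon-induced catalytic subunits, were left out, while PSMB10, another catalytic subunit of this kind, was kept. This gave 46 genes of 20035 in the table. The cells were HaCaT, a spontaneously immortalized line of human skin keratinocytes, labelled wild type, and their poly(A) RNA was sequenced. The 3 palmatine samples were treated with palmatine, a plant alkaloid, and the 3 control samples are labelled as having no treatment. The series describes stimulation with the cytokine IL-17, but no sample label states it, and the sources used here give neither dose nor time. If only the palmatine samples had received IL-17, effects of the cytokine and of palmatine could not be told apart, and if both groups had, each value below compares palmatine with its absence in stimulated cells. The question put to the data was whether transcripts of this complex differed between palmatine and control cells.

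The core particle of the proteasome is a barrel of stacked rings. Alpha subunits (PSMA genes) form the outer rings and gate the entry, and beta subunits (PSMB genes) form the inner rings, which hold the proteolytic sites. A regulatory particle of ATPases (PSMC genes) and other subunits (PSMD genes) binds ubiquitin, unfolds the substrate and feeds it into the barrel. Because the subunits are needed in fixed ratios, their genes are known to be induced together when proteasome activity falls short, through the transcription factor NFE2L1, also called NRF1.

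Library totals ran from 15155605 to 17218171 counts in palmatine samples and from 12908646 to 15699753 counts in control samples. No label says that replicates were separate cultures, so the p-values rest on a spread between samples that may be only technical. No library repeated another: within groups, chi-square over its degrees of freedom was 3.26 or more for each pair. The mitochondrially encoded share of counts lay between 5.25% and 5.72% in palmatine samples and between 7.22% and 7.88% in control samples, and without those genes the median log2 fold change of the proteasome genes was -0.16, as with them. All 7 keratinocyte markers were detected, with a summed level of 7906 to 8909 CPM (counts scaled to a common library size) in palmatine samples and 8357 to 8600 CPM in control samples. The 5 fibroblast, 4 melanocyte, 4 immune and 3 endothelial markers summed to at most 8.22 CPM per list in any palmatine sample and 7.22 CPM in any control sample, and COL1A2, TYR, DCT and CD68 were at 0 in all 6.

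Of the 46 genes, 44 had enough counts to be tested. PSMA8, which replaces an alpha subunit in the testis, had 0 counts in all 6 libraries, and PSMB11, the catalytic subunit of the thymus, had 1 count in palmatine 2 and 0 in the others. Levels of different genes are given as FPKM, in which the count is divided by gene length and library total. PSMD1, a large scaffold of the regulatory particle, averaged 15.2 ± 0.0890 FPKM in palmatine samples and 14.8 ± 0.565 FPKM in control samples (SD, n = 3 each). The median of the mean FPKM was 34.7 over the 44 tested members, against 5.74 over all 12356 genes tested. The highest levels were those of PSMB3, a structural beta subunit, at 289 FPKM, PSMB7, which carries the trypsin-like activity, at 228 FPKM, and PSMA7 of the alpha ring at 206 FPKM.

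The 3 lowest levels among tested members were those of PSMD9, PSMA2 and PSMA6, genes that share part or all of their coding sequence with another gene of the table. In GENCODE 29, other genes of the table on the same strand overlapped 97.1% of the coding bases of PSMA2, 88.6% for PSMA1, 70.4% for PSMA6, 58.7% for PSMD9 and 58.3% for PSMB10. These 5 were the only members with such shared coding bases, and their levels ran from 0.414 to 16.9 FPKM, with a median of 0.910 FPKM. The other 39 tested members ran from 1.35 to 289 FPKM, with a median of 35.8 FPKM. The overlapping gene of PSMA1 had 0 counts in every library, that of PSMA2 had at most 1 and that of PSMA6 at most 4. In GENCODE 29, PSMD9 was overlapped by CFAP251 and by a gene with at most 2 counts. The longest unbroken coding run that PSMD9 shared was with the latter gene. CFAP251 had 421 to 511 counts in palmatine samples and 393 to 483 counts in control samples. By the coordinates of the table, PSMD9 ended at position 121918297 and CFAP251 began at 121918592, so they did not overlap there. The sources used here do not say how reads that fall in both genes were counted, and the part of this in the levels was not tested. GENCODE 29 also names 3 pseudogenes of PSMA2 and 4 of PSMA6, but 0 of PSMA1, PSMB10 and PSMD9. The part of these pseudogenes was not tested either. The sequences below show the start of the longest unbroken shared run, because a read wholly inside such a run matches both genes. They are taken from the coding part of GENCODE 29 transcripts, with capitals for the first 90 bases of the run and lower case for bases before it.
PSMA1: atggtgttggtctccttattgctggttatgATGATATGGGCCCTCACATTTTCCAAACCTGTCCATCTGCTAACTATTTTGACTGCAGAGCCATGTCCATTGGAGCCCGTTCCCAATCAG
PSMA2: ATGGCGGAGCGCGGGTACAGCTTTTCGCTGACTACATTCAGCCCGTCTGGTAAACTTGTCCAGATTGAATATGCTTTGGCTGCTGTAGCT
PSMA6: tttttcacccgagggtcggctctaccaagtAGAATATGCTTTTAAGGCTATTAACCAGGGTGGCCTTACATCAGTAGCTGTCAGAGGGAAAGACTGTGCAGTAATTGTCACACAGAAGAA
For PSMA1-201, on chromosome 11, the stretch covers coding bases 383 to 502, and the run begins at base 413 and ends with the coding part at base 789. Sharing also occurs before it: 718 of the 789 coding bases lie in exons of the overlapping gene, from base 1 on, but none of the 30 lower-case bases do. For PSMA2-201, on chromosome 7, it covers bases 1 to 90, and all 702 coding bases are shared. For PSMA6-201, on chromosome 14, it covers bases 45 to 164, and the run holds 664 of 738 coding bases.

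**Figure D1:**
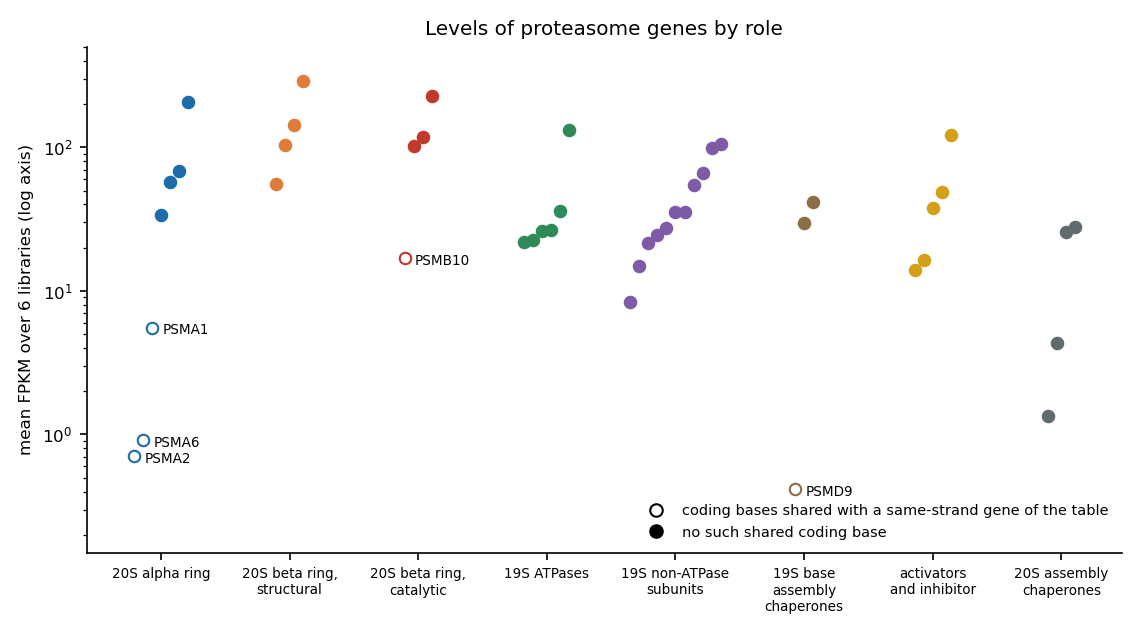
Mean FPKM over the 6 libraries (log axis) for the 44 tested proteasome genes, in columns by role in the complex. Open circles mark the 5 genes whose coding bases are shared with a same-strand gene of the table, which range from 0.414 to 16.9 FPKM, and filled circles mark the other genes.

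Gene length also sets these levels. The deposited length of PSMD1 was 15795 bases, against 5187 bases for its merged exons in GENCODE 29, and with the shorter length, a choice made after seeing the data, its mean level over the 6 libraries would be 45.7 FPKM. PSMC2, an ATPase, would be at 55.4 in place of 22.8 FPKM, PSMF1, a proteasome inhibitor, at 32.2 in place of 16.5 FPKM, and PSMG2, an assembly chaperone, at 16.1 in place of 4.32 FPKM. The order of members by FPKM thus depends on which length is used.

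Between palmatine and control cells no proteasome gene passed the threshold, which was a Benjamini-Hochberg adjusted p of 0.05 across the whole table in edgeR's quasi-likelihood test. The count was 0 of 44, lower or higher, against 0.0405% of all 12356 tested genes that passed as lower and 0% as higher. DESeq2 and limma-voom also called 0 members. At an unadjusted p under 0.05, edgeR gave 6 members with lower palmatine levels and 0 with higher ones, where the shares over all tested genes were 4.69% and 5.13%. DESeq2 and limma-voom each gave 6 and 0. Over all tested genes the shares were 3.98% lower and 4.24% higher in DESeq2, and 4.99% and 5.34% in limma-voom. Of the 44 members, 36 had a log2 fold change below 0, or 81.8%, against 50.4% of all tested genes. The median log2 fold change was -0.16 over the members and 0.00 over all tested genes. Its sign depended on scaling: with FPKM rescaled to a common sum per library (TPM), the median was 0.03 over the 41 members tested and 0.18 over all genes. On that scale 16 of the 41 were negative, so the signs given below hold for TMM-scaled counts. At an unadjusted limma p under 0.05, 1 of the 41 was lower there and 8 were higher. Over all genes tested on that scale the shares were 0.283% lower and 43.3% higher. For 41 of the 44 the 95% interval lay within a 1.5-fold change either way, the exceptions being PSMA1, PSMA2 and PSMB10, against 79.4% of all tested genes. In RNA from whole cultures, fewer cells that express a gene and less RNA per cell cannot be told apart.

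**Figure D2:**
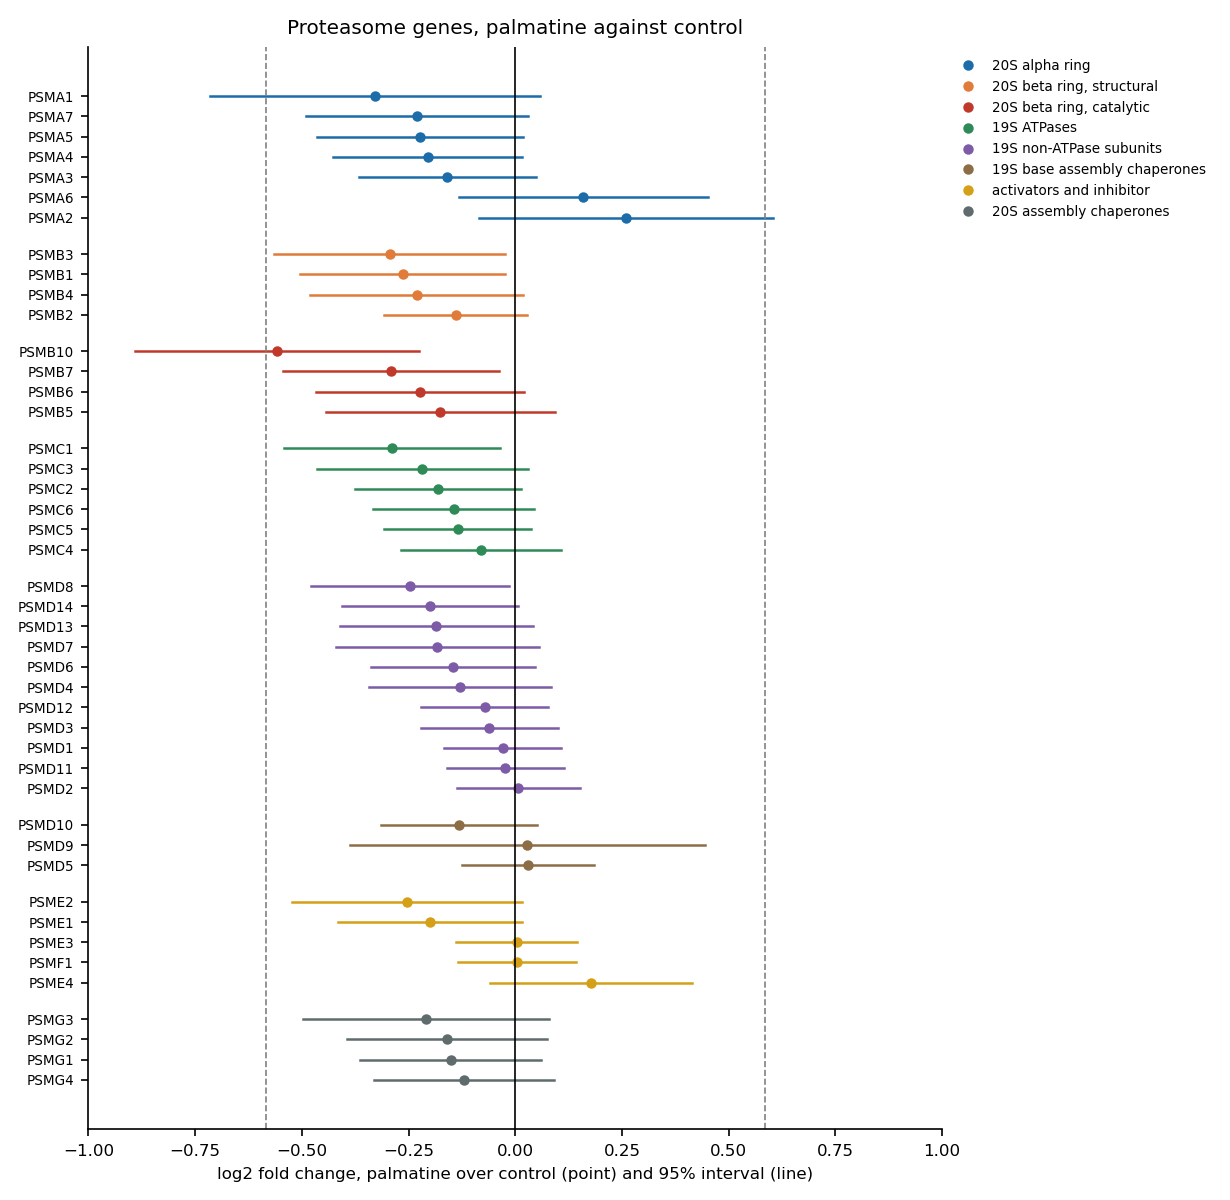
Log2 fold change of palmatine over control (point) with its 95% interval (line) for the 44 tested proteasome genes, grouped by role. Dashed lines mark a 1.5-fold change, the solid line marks no change, and 36 of the points lie below 0 with TMM scaling (16 of 41 on the TPM scale).

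The catalytic beta subunits held the member with the smallest p. PSMB10 (ENSG00000205220, chromosome 16, positions 67934506 to 67936864) replaces PSMB7 in the immunoproteasome, the form that favours peptides for antigen presentation. It was at 18.7, 25.7 and 22.6 CPM in palmatine 1, 2 and 3, against 26.9, 33.2 and 38.4 CPM in control 1, 2 and 3. All 3 palmatine values lay below all 3 control values, with palmatine 2 and control 1 closest. This was the only tested member without overlap on that side, against 5.71% of all tested genes. The log2 fold change was -0.56 with a standard error of 0.148 and a 95% interval from -0.89 to -0.23 (edgeR adjusted p = 0.455). PSMB10 had 333 to 510 counts per library and is among the genes with shared coding bases. Its overlapping gene had 41, 31 and 42 counts in palmatine samples, against 31, 25 and 19 counts in control samples, and the part of this in the result was not tested.

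PSMB7 (ENSG00000136930, chromosome 9) was at 322, 424 and 357 CPM in palmatine samples, against 402, 452 and 496 CPM in control samples. Palmatine 2 exceeded control 1, so the groups overlapped. The log2 fold change of -0.29 had a standard error of 0.113 (edgeR adjusted p = 0.455). PSMB5, which carries the chymotrypsin-like activity and is the main target of the drug bortezomib, was at 129.6, 176 and 139 CPM in palmatine samples, against 148, 175 and 179 CPM in control samples. Its log2 fold change was -0.18, with a 95% interval from -0.44 to 0.09 (edgeR adjusted p = 0.508). All 4 tested catalytic genes had negative values, with a median log2 fold change of -0.26 and a range from -0.56 to -0.18.

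The structural beta subunits gave similar sizes, and all 4 were negative, with a median log2 fold change of -0.25 and a range from -0.29 to -0.14. PSMB3 (ENSG00000277791, chromosome 17) was at 268, 351 and 294 CPM in palmatine samples, against 319, 383 and 417 CPM in control samples, a log2 fold change of -0.29 ± 0.120 (SE, edgeR adjusted p = 0.455). PSMB1 (ENSG00000008018, chromosome 6) was at 190.0, 233 and 205 CPM in palmatine samples, against 219, 251 and 284 CPM in control samples, a log2 fold change of -0.26 ± 0.107 (SE, edgeR adjusted p = 0.455). In both genes palmatine 2 lay above control 1, and control 3 was the highest sample.

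Among the alpha subunits, 5 of 7 tested genes were negative, and none had an unadjusted p under 0.05. PSMA7 was at 288, 390.1 and 322 CPM in palmatine samples, against 349.7, 400.4 and 422 CPM in control samples. PSMA4 was at 338, 415 and 369.7 CPM in palmatine samples, against 389.6, 430.2 and 475 CPM in control samples. Control 3 was the highest sample and palmatine 1 the lowest in both. PSMA5 was at 161, 204 and 172 CPM in palmatine samples, against 183, 216 and 228 CPM in control samples. On the log2 scale the differences were -0.23 for PSMA7, -0.21 for PSMA4 and -0.22 for PSMA5, with overlapping groups (edgeR adjusted p = 0.455 each). PSMA1 was at 12.8, 18.3 and 13.7 CPM in palmatine samples, against 15.2, 18.2 and 22.8 CPM in control samples, a log2 fold change of -0.33 with a 95% interval from -0.72 to 0.06. The positive values were those of PSMA2 and PSMA6, named after their values were seen, at log2 fold changes of 0.26 and 0.16 (edgeR adjusted p = 0.469 for PSMA2, 0.569 for PSMA6). PSMA2 was at 7.67, 5.81 and 5.74 CPM in palmatine samples, against 4.93, 5.66 and 5.51 CPM in control samples. It was the 1 member whose palmatine values all lay above its control values, against 6.68% of all tested genes. Both are genes with shared coding bases, and PSMA2 had from 64 to 137 counts per library.

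In the regulatory particle, all 6 ATPase genes were negative, with a median log2 fold change of -0.16 and a range from -0.29 to -0.08. PSMC1 (ENSG00000100764, chromosome 14) was at 107, 138 and 116 CPM in palmatine samples, against 129.9, 147 and 164 CPM in control samples, a log2 fold change of -0.29 ± 0.113 (SE, edgeR adjusted p = 0.455). GENCODE 29 names 13 pseudogenes of PSMC1, and NRDE2 on the opposite strand covers 75.8% of the exonic bases of PSMC1. Its reads are thus uncertain, and counting by strand would settle only the overlap with NRDE2. PSMC2 was at 171, 198 and 185 CPM in palmatine samples, against 193, 204 and 231 CPM in control samples, with palmatine 2 above control 1. The log2 fold changes of PSMC2 and PSMC3 were -0.18 and -0.22 (edgeR adjusted p = 0.455 each).

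Of the 11 other subunits of the regulatory particle, 10 were negative, with a median log2 fold change of -0.13. The scaffolds PSMD1 and PSMD2 were close to 0, but so was PSMD11 at -0.02, named after its values were seen. PSMD8, a lid subunit, was at 76.7, 97.7 and 79.9 CPM in palmatine samples, against 91.7, 104 and 106 CPM in control samples, a log2 fold change of -0.25 ± 0.103 (SE, edgeR adjusted p = 0.455). PSMD14, the deubiquitinase that strips ubiquitin from arriving substrates, was at 151, 180.0 and 171 CPM in palmatine samples, against 176, 187 and 213 CPM in control samples, a log2 fold change of -0.20. In contrast to these, the scaffold PSMD2 was nearly level over the libraries. It was at 515, 534 and 523 CPM in palmatine samples, against 536, 520.4 and 509 CPM in control samples, and the 95% interval of its log2 fold change ran from -0.14 to 0.15. PSMD1 was at 231, 236 and 237 CPM in palmatine samples, against 248, 237 and 234 CPM in control samples, with an interval from -0.17 to 0.11.

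The chaperones that build the base of the regulatory particle stayed within a 1.5-fold change in all 3 intervals. PSMD10, also known as the oncoprotein gankyrin, and PSMD5 had log2 fold changes of -0.13 and 0.03. PSMD9 had from 41 to 70 counts per library and a log2 fold change of 0.03 with a standard error of 0.185, the widest of the 44. Of the PSMG chaperones, which assemble the alpha ring, all 4 were negative, from -0.21 for PSMG3 to -0.12 for PSMG4. PSMG1 was at 48.8, 58.6 and 49.5 CPM in palmatine samples, against 53.7, 58.2 and 62.2 CPM in control samples, or -0.15 as a log2 fold change (edgeR adjusted p = 0.484). These groups overlapped, with palmatine 2 above control 1 and 2.

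Among activators and the inhibitor, 2 were negative and 3 positive, with a median log2 fold change of 0.00 and a range from -0.25 to 0.18. PSME1 and PSME2 form the interferon-inducible cap that opens the barrel. PSME1 was at 177, 228 and 198 CPM in palmatine samples, against 216, 236 and 241 CPM in control samples, and PSME2 at 140.0, 182 and 157 CPM in palmatine samples, against 162, 196 and 213 CPM in control samples. Their log2 fold changes were -0.20 and -0.25 (edgeR adjusted p = 0.455 each). PSME4, a large activator of the nucleus known for its part in histone breakdown, had the highest value of the members without shared coding bases and was named after its values were seen. It was at 168, 132 and 164 CPM in palmatine samples, against 150.4, 133 and 126 CPM in control samples, a log2 fold change of 0.18, with a 95% interval from -0.06 to 0.41 (edgeR adjusted p = 0.469). Here palmatine 2 was low with the controls and control 1 was the highest of its group, the reverse of the order in the beta subunits.

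**Figure D3:**
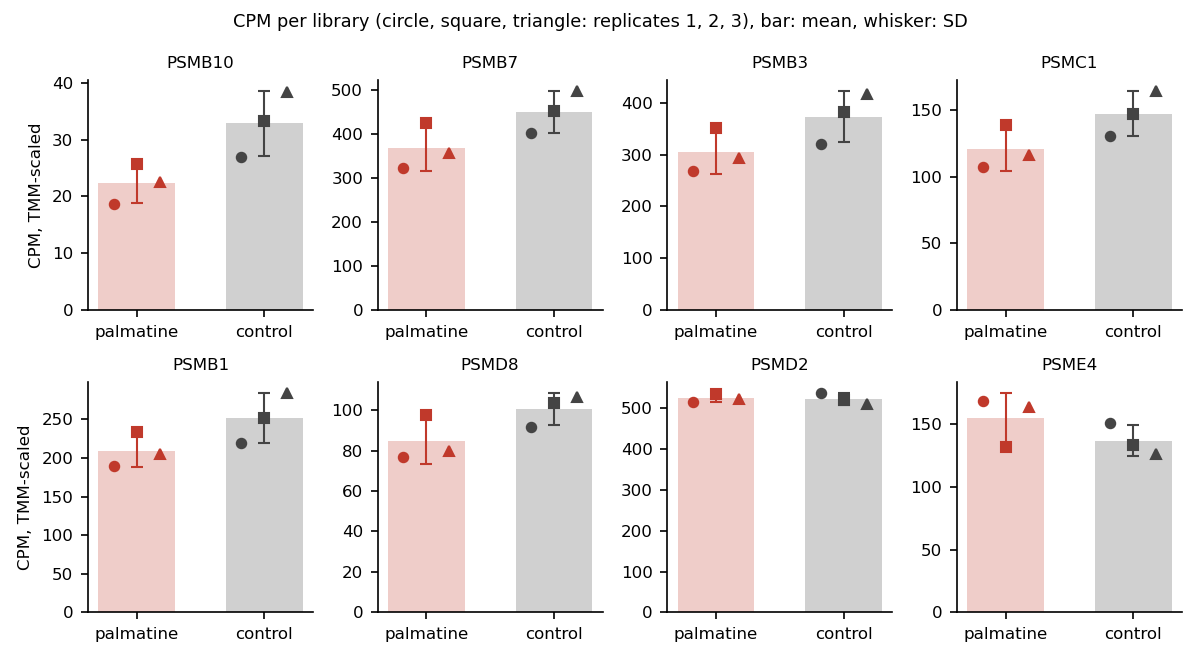
CPM of 8 proteasome genes in the 3 palmatine and 3 control libraries, with a bar for the mean, a whisker for the SD and a marker for each replicate. PSMB10 has the only panel in which the groups do not overlap, PSMD2 is nearly level, and PSME4 has palmatine 2 low in place of high.

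Most members were high or low in the same libraries. Palmatine 1 had the lowest CPM of all 6 libraries in 33 of the 44 tested members, and control 3 the highest in 34. On log2 CPM centred for each gene over the 6 libraries, the median over members was -0.21, 0.06 and -0.10 in palmatine 1, 2 and 3, against -0.03, 0.10 and 0.18 in control 1, 2 and 3. Palmatine 2 thus stood above control 1, and the groups overlapped. Without palmatine 2 the number of members lower at an unadjusted p under 0.05 was 24 of 44, where 13.5% of all tested genes were lower at that threshold, and without control 1 it was 22, where 10.2% of all tested genes were. It was 1 without palmatine 1, 1 without palmatine 3, 1 without control 2 and 1 without control 3, where 1.04% to 2.06% of all tested genes were lower. In each of these fits 0 members passed the adjusted threshold. All members together took 0.719%, 0.825% and 0.748% of the counts in palmatine samples, against 0.759%, 0.820% and 0.860% in control samples. As a share of summed FPKM, which counts short genes more, they took 0.917%, 1.04% and 0.932% in palmatine samples, against 0.890%, 0.970% and 1.01% in control samples, where control 1 rather than palmatine 1 was lowest.

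**Figure D4:**
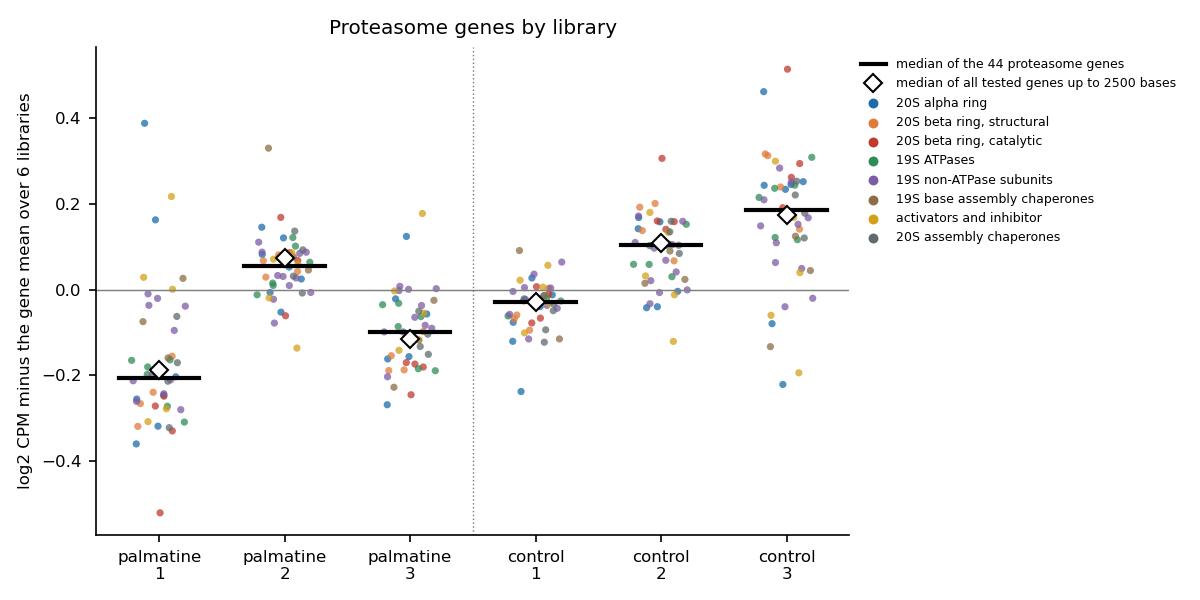
Log2 CPM minus the gene's mean over 6 libraries for the 44 tested proteasome genes in each library, colored by role, with black bars for their median and open diamonds for the median of all tested genes of at most 2500 bases. Bars and diamonds are both lowest in palmatine 1 and highest in control 3, although 31 of the 44 proteasome genes are longer than 2500 bases.

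Gene length moved with these values. The median of all 1551 tested genes of at most 2500 bases was -0.19, 0.07 and -0.12 in palmatine 1, 2 and 3, against -0.03, 0.11 and 0.17 in control 1, 2 and 3, which is the order of the proteasome genes. The 18 members above 5000 bases had palmatine 1 lowest and control 3 highest as well, with medians of -0.07, 0.001 and -0.04 in palmatine 1, 2 and 3, against -0.03, 0.05 and 0.11 in control 1, 2 and 3. All 6883 tested genes above 5000 bases ran the other way, with medians of 0.07, -0.02 and 0.05 in palmatine 1, 2 and 3, against 0.02, -0.04 and -0.06 in control 1, 2 and 3. Across the 44 members, log2 fold change and deposited length had a Spearman correlation of 0.59, and across all 12356 tested genes one of 0.44; genes share their libraries, and no test was made. All 13 members of at most 2500 bases were negative, with a median log2 fold change of -0.22, where 81.0% of all genes of that length were negative, with a median of -0.16. Of the 13 members above 2500 and up to 5000 bases, 11 were negative, with a median of -0.14, against 64.7% negative and a median of -0.05 over all genes of that length. Of the 18 longer members, 12 were negative, with a median of -0.10, against 35.3% negative and a median of 0.06 over all longer genes. In each of these length classes the median of the members was thus below that of all genes. With a per-library trend on length removed, 39 of 44 members were negative. Over all genes, 913 of 1551, 2197 of 3922 and 3651 of 6883 were negative in that fit, from the shortest length class to the longest. The median was -0.11 over members and -0.02 over all genes, and 0 members passed. The change was uneven across the set: the median of the members up to 2500 bases was -0.10 and that of the members above 5000 bases -0.18. PSMB10 had a log2 fold change of -0.42 in that fit while PSMC1 had one of -0.33 (edgeR adjusted p = 0.467 each).

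**Figure D5:**
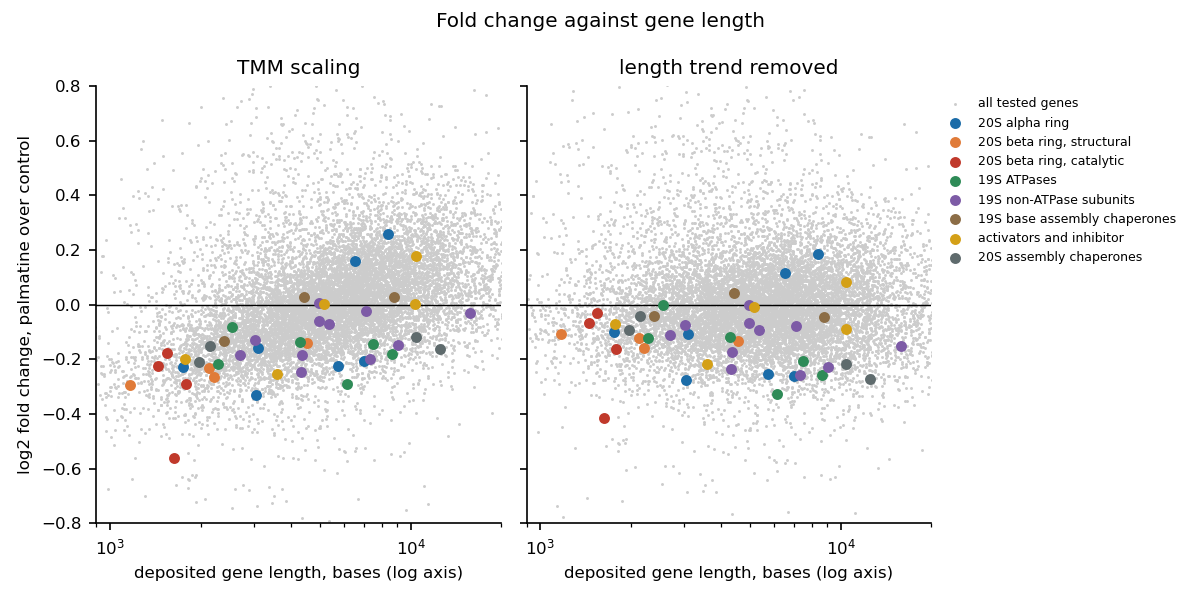
Log2 fold change of palmatine over control against deposited gene length (log axis) for the 44 tested proteasome genes (colored by role) and all tested genes (grey), with TMM scaling on the left and with the per-library length trend removed on the right. On the left short members lie lower than long ones, and on the right 39 of 44 members lie below 0. Genes outside the axis limits are not drawn.

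Promoters of the proteasome genes are known targets of NFE2L1, which binds antioxidant response elements. RefSeq windows (GRCh38.p14) of 250 bases before each RefSeq start site were therefore searched for the core TGACNNNGC on both strands. Some genes had several windows. Some windows lay inside the gene by the coordinates of the table, among them those with the core in PSMA4, PSMC5, PSME2 and PSMG2. A window was found for 40 of the 46 genes, of which 12 held the core in any window, against 13.2% of all 27305 genes with a window. The windows of the most abundant member and of PSME4 are shown, a pair chosen after the values were seen. Both hold the core, and their log2 fold changes have opposite signs. Of the genes that hold it, PSMD5, PSMD9 and PSME4 had positive values and the others negative ones. Any link between the core and the fold change was not tested. Capitals mark the core, and PSME4 has it on the other strand.
PSMB3: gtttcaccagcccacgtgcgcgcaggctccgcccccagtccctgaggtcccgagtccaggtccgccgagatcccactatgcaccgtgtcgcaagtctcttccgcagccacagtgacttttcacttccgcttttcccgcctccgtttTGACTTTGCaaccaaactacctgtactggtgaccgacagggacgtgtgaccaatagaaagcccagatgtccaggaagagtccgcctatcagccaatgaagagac
PSME4: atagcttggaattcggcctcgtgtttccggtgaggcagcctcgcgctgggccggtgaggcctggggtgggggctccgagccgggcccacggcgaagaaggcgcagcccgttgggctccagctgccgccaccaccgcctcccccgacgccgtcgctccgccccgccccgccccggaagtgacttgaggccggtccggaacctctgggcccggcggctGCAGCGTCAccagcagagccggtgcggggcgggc
The first lies at chr17:38752491-38752740 on the plus strand and the second at chr2:53970994-53971243 on the minus strand. A match to these letters is a description of the sequence and shows no binding.

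Genes around the complex likewise had 0 members past the threshold. Of 10 tested subunits and cofactors without a PSM name, 7 were negative, with a median log2 fold change of -0.09. POMP, the chaperone that completes the beta rings, was at 133, 162 and 152 CPM in palmatine samples, against 172, 188 and 218 CPM in control samples. Its groups did not overlap, and the log2 fold change was -0.37 ± 0.103 (SE, edgeR adjusted p = 0.455). PAAF1, which binds the ATPases during assembly, had a value of -0.20.

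Of the 11 tested genes of the NFE2L1 route, 3 were negative and 8 positive, with a median log2 fold change of 0.03. NFE2L1 itself was at 385, 352 and 375 CPM in palmatine samples, against 371, 369.9 and 335 CPM in control samples, with a 95% interval of its log2 fold change from -0.11 to 0.21. SYVN1, the ubiquitin ligase that marks NFE2L1 at the endoplasmic reticulum, and BTRC, a substrate receptor for its turnover, had values of 0.29 and 0.14 (edgeR adjusted p = 0.455 for SYVN1, 0.459 for BTRC).

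Of 17 tested genes for ubiquitin, its activating enzymes and shuttle factors, 10 were negative, against 50.4% of all tested genes, with a median log2 fold change of -0.04. At an unadjusted p under 0.05, 3 of the 17 were lower, against 4.69% of all tested genes. SQSTM1, the autophagy receptor p62, which also binds ubiquitin, was at 432, 525 and 447 CPM in palmatine samples, against 537, 594 and 639.6 CPM in control samples. The groups did not overlap, and the log2 fold change was -0.33 ± 0.0966 (SE, edgeR adjusted p = 0.455).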

How the data were processed

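Poly(A) RNA of 6 HaCaT samples was sequenced after TRIzol extraction, per the labels' protocols, which also describe a dUTP step for strand-specific libraries. The submitters' processing notes name HISAT2 2.1.0 and HTSeq 0.9.1, and the sources used here do not give the build, annotation release or strand setting. Raw counts of reads per gene stand in the deposited table, per the file headers. The deposited FPKM equalled count over length and library total for 100% of values above 0 (tolerance 1e-05). Samples were grouped by treatment label.

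Genes were kept with filterByExpr (minimum count 10) and scaled with TMM in edgeR 4.0.16 under R 4.3.3, and palmatine was compared with control by the robust quasi-likelihood test with Benjamini-Hochberg adjustment over all tested genes. Intervals follow from the F statistic. Alternatives, 20 in all, used other scaling, DESeq2 1.42.0, limma 3.58.1 on voom weights or log2 FPKM, other filters, a replicate block, a loess length trend (span 0.3) as offset, and each library left out. The procedure was tested on simulated data drawn without a length trend, so that test does not cover the trend seen here. Members and lists were chosen with earlier results of these data known. Genes named were, in each role, the 2 smallest p and the highest FPKM, PSMA1, PSMD1, PSMB5, PSMB10 and members not tested; in other lists the 2 smallest p; NFE2L1 and POMP. Exceptions are stated, and 1 gene that this rule picks is not reported here. Coordinates are those of the table, and all members matched GENCODE 29 by identifier.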

Additional observations from a re-analysis of the deposited data

How the results depend on the processing

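The median log2 fold change of the members ran from -0.23 to -0.10 under the alternatives other than TPM. The adjusted threshold was passed by 0 members in any fit except the length trend removed with replicate block. In that fit 1 member passed, PSMB10 (log2 fold change -0.41, edgeR adjusted p = 0.0418). POMP (-0.38, edgeR adjusted p = 0.0285) and SQSTM1 (-0.40, edgeR adjusted p = 0.0459) passed there too. In the same fit 10.8% of all tested genes were lower at an unadjusted p under 0.05. The genes it called over the whole table are counted below. On log2(TPM + 1), 16 of 41 members were negative and the median was 0.025, but all genes had a median of 0.18, so that the members lay at -0.16 relative to it, as with TMM. Other signs turned there too, with PSMC2 at 0.023, PSMD14 at 0.0037, PSMD10 at 0.068, PSMG1 at 0.049, PSMD1 at 0.17 and PSMB5 at 0.020. PSMD1 was at 0.034 with library size alone, 0.032 with log2(FPKM + 1) and 0.034 with log2(FPKM + 0.1). It was at -0.151 with the length trend removed and -0.153 with the block added, so its value close to 0 depended on the fit. PSMD2 was at -0.0030 with upper-quartile factors. With 1 library left out, PSMD2 ran from -0.011 to 0.026 and was negative without palmatine 2 or control 3, PSMD5 ran from -0.019 to 0.059 and was negative without control 1, and PSMD9 ran from -0.15 to 0.14 and was negative without palmatine 2 or control 3. PSMD9 was at -0.047 with the length trend removed and -0.034 with the block added.

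The number of members lower at an unadjusted p under 0.05, 6 with TMM and edgeR, was 1 with library size alone and on each FPKM or TPM scale (0.283% to 1.76% of all tested genes were lower there). It was 13 without a count filter (4.19% of all genes), 11 with the length trend removed (6.00%), 17 with the block added (10.8%), and from 1 to 24 with 1 library left out (1.04% to 13.5%). Genes called over the whole table, 5 with TMM and edgeR, were 14 in DESeq2, 8 without a count filter and 8 with the length trend removed. They were 26 of 12356 with the block added to that trend fit, PSMB10 among them, and 1 without the mitochondrially encoded genes. Leaving out the 5 genes with shared coding bases, an alternative chosen after seeing the data, gave a median of -0.16, with 34 of 39 negative. Whether the replicate numbers pair the libraries is not stated and could not be settled with so few libraries. The correlation of deviations was 0.399, 0.178 and -0.0963 for the numbers 1, 2 and 3. Between libraries of different numbers it ran from -0.465 to 0.323. With the number as a replicate block, 9 genes were called in the table and 23 of 44 members were lower at an unadjusted p under 0.05, against 9.995% of all tested genes. Members with few counts, such as PSMD9 and PSMA2, limit what can be seen. A p above the threshold does not show equal levels.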
